A study of Mus musculus with 100 samples.

Results

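The loci described here are those of 10 mouse genes, namely the Toll-like receptor genes Tlr1, Tlr2, Tlr3, Tlr4, Tlr6, Tlr7, Tlr9 and Tlr13 and the co-receptor genes Cd14 and Ly96, the last encoding MD-2. Every peak whose nearest annotated gene start belonged to 1 of these genes was taken from all 15 tables of chromatin immunoprecipitation with sequencing (ChIP-seq), without regard to its tag counts. This gave 1040 of 610301 listed peaks, or 0.17%, of which 1031 passed the tag minimum of their comparison (4 tags for a factor and 16 for H3K27ac, an acetylated histone tail found at active regulatory regions) and 9 H3K27ac regions did not. Peaks of different tables whose centres lay within 500 bp were joined to 158 sites. Assignment to the nearest start says nothing about which gene a peak acts on. Distances, "upstream" and "downstream" are relative to the annotated transcript start nearest the peak and its direction of transcription. That start need not be the end of the RefSeq gene span given below. At Tlr6 it lies inside the gene, so peaks described as upstream of Tlr6 are within the RefSeq gene.

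Toll-like receptors are membrane proteins that recognise conserved microbial molecules. TLR1 and TLR6 each pair with TLR2 at the cell surface to bind bacterial lipopeptides, and TLR4 binds the lipid A part of lipopolysaccharide together with MD-2, to which CD14 hands the lipid. TLR3, TLR7, TLR9 and TLR13 sit in endosomes and bind double-stranded RNA, single-stranded RNA, unmethylated CpG DNA and bacterial ribosomal RNA, respectively. All signal through MyD88 except TLR3, which uses TRIF, and TLR4 uses both, leading to NF-kappaB (of which p65 is a subunit) and AP-1 (a dimer family to which Fosl2 belongs). In macrophages these genes lie under the lineage-determining factor PU.1, while NCoR and HDAC3 form a corepressor complex with histone deacetylase activity, p300 is a histone acetyltransferase that marks active enhancers, PGC1b is a transcriptional coactivator and ERK1 is a mitogen-activated protein kinase.

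The cells were bone marrow-derived macrophages (BMDMs) of mice, cultured with M-CSF for 7 days, serum starved, and given vehicle (Veh) or 100 ng/mL KLA, a TLR4 agonist related to lipid A. The labels give 6 h for the KLA libraries, except those with ERKi and those of PGC1b with DMSO, which carry no time. Of the Veh libraries, those of PU.1, p65, Fosl2, HDAC3, NCoR and the HDAC3 inhibitor experiment are labelled 6 h and those of p300 as 0 h of KLA, and the others carry no time. NCoR, HDAC3, p65, Fosl2, PU.1, PGC1b, ERK1 and p300 were mapped in wild-type C57BL/6 BMDMs with Veh and with KLA. NCoR was also mapped with KLA and ERKi (the ERK inhibitor LY3214996), and PGC1b with DMSO and Veh, with DMSO and KLA and with ERKi and KLA. ERK1 and p300 were further mapped in wild-type osteoclast precursors on day 0 and on day 4, that is, before and after RANKL. H3K27ac was mapped in wild-type BMDMs with DMSO and Veh, DMSO and KLA, and RGFP966 (an HDAC3 inhibitor) and KLA. It was also mapped with Veh and with KLA in Ncor flox/flox BMDMs without Cre (called WT), in Ncor flox/flox, LysMCre BMDMs (NKO), in Pgc1b flox/flox BMDMs (flox) and in Pgc1b flox/flox, LysMCre BMDMs (flox Cre). LysMCre deletes in myeloid cells and need not do so in every cell, and H3K27ac tags do not measure the deleted transcripts, so deletion was not checked here. Each group had 2 libraries.

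Header totals of the 70 libraries ran from 4.30 to 21.51 M tags (M standing for 1000000) with a median of 13.65 M. All levels below are tags in a peak per 10 M tags of the library. Levels of different factors come from different antibodies and peak widths and are not compared. The shallowest libraries were Fosl2 KLA replicate 1, p300 day 0 replicate 2, PGC1b DMSO KLA replicate 1 and HDAC3 KLA replicate 2. Replicates of a group differed by more than sampling noise in every case (chi-square per peak of at least 1.36). H3K27ac lay within 2 kb of the start of 6 macrophage markers (Csf1r, Adgre1, Itgam, Lyz2, Cd68 and Mertk) in 2 of the 3 H3K27ac tables and of 3 of them in the other, of 1 to 3 of 4 dendritic cell markers, of at most 1 of 4 neutrophil and of 4 osteoclast markers, and of none of the B cell, T cell and fibroblast markers. Scaling by library totals leaves in any shift that all peaks share, and the median log2 difference over all peaks moved by -1.22 for p65, by -0.52 for p300, by -0.28 for HDAC3, by -0.20 for ERK1, by -0.11 for PGC1b and by 0.42 for PU.1 when trimmed mean (TMM) factors were used instead. Where TMM factors ended or turned a call, their value stands beside it.

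For reference, the sequences of 7 p300 peaks follow, as 200-base windows on the peak centre read from the plus strand of GRCm38 (mm10) in RefSeq. They were chosen after their values were seen, to show peaks that rose or fell with KLA and hold a motif of a factor mapped here. Capitals mark matches on either strand to AP-1 (TGANTCA), PU.1 (GAGGAA) or kappaB. The 5 that rose were Tlr2 3.3 kb upstream (chr3:83844803-83845002, intergenic, AP-1), Tlr1 23.3 kb downstream (chr5:64909288-64909487, AP-1), Tlr4 553.7 kb downstream (chr4:67381177-67381376, intergenic, AP-1), Ly96 8.3 kb downstream (chr1:16696696-16696895, intron, AP-1) and Ly96 5.8 kb downstream (chr1:16694182-16694381, intron, kappaB), and the pair that fell were Tlr3 4.6 kb upstream (chr8:45415125-45415324, PU.1) and Tlr13 6.8 kb upstream (chrX:106136359-106136558, with 3 PU.1 matches):
Tlr2, 3.3 kb upstream: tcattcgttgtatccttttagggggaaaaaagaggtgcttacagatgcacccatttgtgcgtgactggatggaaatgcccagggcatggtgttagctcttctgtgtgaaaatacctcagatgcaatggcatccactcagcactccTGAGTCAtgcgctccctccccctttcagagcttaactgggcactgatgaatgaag
Tlr1, 23.3 kb downstream: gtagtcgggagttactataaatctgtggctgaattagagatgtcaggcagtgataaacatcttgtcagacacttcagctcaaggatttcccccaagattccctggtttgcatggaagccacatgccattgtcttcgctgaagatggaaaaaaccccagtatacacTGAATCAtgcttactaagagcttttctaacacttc
Tlr4, 553.7 kb downstream: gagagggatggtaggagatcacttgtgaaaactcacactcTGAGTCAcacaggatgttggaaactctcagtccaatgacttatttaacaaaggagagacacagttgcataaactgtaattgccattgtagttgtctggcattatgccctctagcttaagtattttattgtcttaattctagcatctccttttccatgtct
Ly96, 8.3 kb downstream: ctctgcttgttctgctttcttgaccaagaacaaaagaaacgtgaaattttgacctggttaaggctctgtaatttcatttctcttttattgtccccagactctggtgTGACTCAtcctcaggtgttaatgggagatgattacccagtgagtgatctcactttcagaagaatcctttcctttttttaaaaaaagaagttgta
Ly96, 5.8 kb downstream: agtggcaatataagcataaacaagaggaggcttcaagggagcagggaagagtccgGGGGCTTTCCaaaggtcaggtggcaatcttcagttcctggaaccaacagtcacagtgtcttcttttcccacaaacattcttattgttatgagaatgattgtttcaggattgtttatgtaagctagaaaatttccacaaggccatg
Tlr3, 4.6 kb upstream: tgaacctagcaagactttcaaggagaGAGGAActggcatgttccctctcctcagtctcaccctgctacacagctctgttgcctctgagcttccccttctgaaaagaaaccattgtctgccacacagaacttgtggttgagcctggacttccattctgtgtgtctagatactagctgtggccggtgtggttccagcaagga
Tlr13, 6.8 kb upstream: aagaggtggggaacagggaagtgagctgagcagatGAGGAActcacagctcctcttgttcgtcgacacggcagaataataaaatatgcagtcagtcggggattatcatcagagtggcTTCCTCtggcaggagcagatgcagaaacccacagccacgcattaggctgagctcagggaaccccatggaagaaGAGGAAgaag

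Over all 143 p300 windows of the loci, an AP-1 match was present in 21.7%, against 23.1% of the 67990 p300 windows genome-wide. Of the windows called higher with KLA, 24.6% held AP-1, 27.5% held PU.1, 10.1% held kappaB and 4.35% held the interferon regulatory factor motif (GAAA and GAAA with any 2 bases between). Of the 15 called lower, 53.3% held PU.1 and none held AP-1, kappaB or the interferon regulatory factor motif. PU.1 was present in 52.5% of the 59 windows not called and in 40.1% of all windows, and kappaB in 9.01% and the interferon regulatory factor motif in 5.24% of all windows. The shares describe these letters in these windows.

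With KLA, more peaks of the loci rose than fell for every factor except PU.1. A peak is called here at a Benjamini-Hochberg adjusted p under 0.05 in edgeR's quasi-likelihood test across all peaks of its table together with a change of more than 2-fold. For p65, 77 of 104 peaks (74.0%) were called higher and 1 lower, beside 57.0% and 5.43% of all p65 peaks tested. With TMM factors the p65 split was 37 higher and 12 lower, beside 27.6% and 21.3% of all p65 peaks. For p300, 69 of 143 (48.3%) were called higher and 15 (10.5%) lower, beside 42.1% and 12.9% of all. With TMM factors the p300 split was 50 and 27, beside 32.7% and 23.9% of all. The shares at the loci thus lay close to or above those of all peaks in the upward direction and below them in the downward direction. NCoR was called higher at 30 of 94 peaks (31.9%) and lower at 15 (16%), beside 23.4% and 16.7% of all. HDAC3 was called higher at 33 of 89 (37.1%) and lower at 8 (8.99%), beside 27.5% and 11.3% of all. With TMM factors the HDAC3 split was 27 and 15, beside 24.3% and 16.3% of all. PGC1b was called higher at 19 of 80 (23.8%) and lower at 2 (2.50%), beside 16.4% and 6.35%. ERK1 was called higher at 7 of 59 (11.9%) and lower at 1 (1.69%), beside 10.3% and 2.53%. Fosl2 was called higher at 11 of 69 (15.9%) and lower at 0, beside 11.4% and 4.19%. PU.1 was called higher at 7 of 76 (9.21%) and lower at 8 (10.5%), beside 4.53% and 21.7%. With TMM factors the PU.1 split was 12 and 2, beside 9.13% and 10.6% of all. In the second set of PGC1b libraries, with DMSO, 25 of 89 peaks (28.1%) were called higher and 0 lower, beside 16.4% and 1.23% of all. Single libraries weighed on these counts. The calls in either direction numbered 21 and 23 for NCoR without KLA replicates 1 and 2 in turn, 48 and 46 for p65 without the same libraries, 15 and 14 for HDAC3 and 11 and 12 for PGC1b without Veh replicates 1 and 2 in turn, and 3 for ERK1 without KLA replicate 1. For Fosl2 there were 0 without either Veh library and 25 and 24 without KLA replicates 1 and 2, and for PGC1b with DMSO 15 without KLA replicate 2 and 16 without Veh replicate 2.

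**Figure D1:**
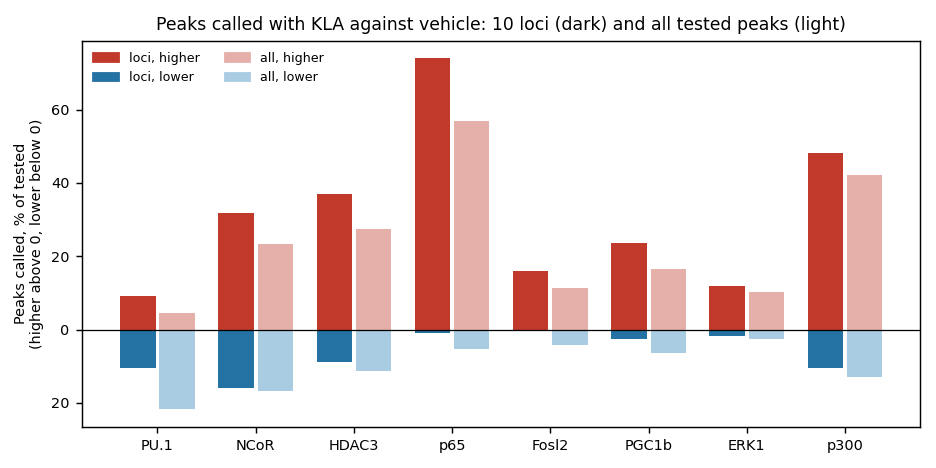
Percent of tested peaks called with KLA against Veh for each factor (x axis), higher above 0 and lower below 0, at the 10 loci (dark bars) and over all tested peaks (light bars). The share called higher at the loci runs from 9.21% for PU.1 to 74.0% for p65 and lies above the light bar for each factor.

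The median log2 difference with KLA over the peaks of the loci was 1.96 for p65, beside 1.46 over all p65 peaks, 0.95 beside 0.65 for p300, 0.60 beside 0.27 for HDAC3, 0.38 beside 0.10 for NCoR, 0.40 beside 0.06 for PGC1b, 0.34 beside -0.14 for Fosl2, 0.25 beside 0.26 for ERK1 and -0.22 beside -0.41 for PU.1. These medians were the same with peaks without tags set at their bound. Adaptors and kinases of the pathway (Myd88, Tirap, Ticam1, Ticam2, Irak1 to Irak4, Traf6, Traf3 and Tollip) carry the signal inside the cell. Of 55 p300 peaks near 11 of these genes, 32 were called higher and 1 lower, beside 42.1% and 12.9% of all p300 peaks. For p65, 35 of 44 adaptor peaks were called higher and 0 lower (57.0% and 5.43% of all p65 peaks), and for NCoR 12 of 42 higher and 1 lower (23.4% and 16.7% of all NCoR peaks). Other receptors and accessory proteins (Tlr5, Tlr8, Tlr11, Tlr12, Cd180, Ly86, Lbp, Cd36 and the endosomal chaperones and transporters Unc93b1, Cnpy3, Hsp90b1, Nrros, Slc15a3 and Slc15a4) had 39 p300 peaks called higher and 47 lower of 134. For p65 these accessory genes had 47 peaks called higher and 6 lower of 96, for NCoR 9 higher and 26 lower of 96, and for PU.1 2 higher and 34 lower of 103, beside 4.53% and 21.7% of all PU.1 peaks. The difference between the lists was not tested.

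By gene, p300 was called higher at 12 of 17 Tlr1 peaks, 9 of 21 Tlr2 peaks, 2 of 4 Tlr6 peaks, 20 of 32 Tlr4 peaks, 9 of 11 Ly96 peaks, 3 of 10 Cd14 peaks, 11 of 25 Tlr7 peaks and 3 of 15 Tlr13 peaks, and at none of 7 Tlr9 peaks and 1 Tlr3 peak. It was called lower at 4 Tlr2, 5 Tlr7, 5 Tlr13 and 1 Tlr3 peaks. The genes of the cell surface (Tlr1, Tlr2, Tlr4, Tlr6, Cd14 and Ly96) had 55 p300 peaks called higher and 4 lower of 95, and those of the endosome 14 higher and 11 lower of 48, beside 42.1% and 12.9% of all p300 peaks, and the difference between them was not tested. Tlr4 held 20 of the 55. Some of these were assigned to it only by nearest start, as far as 651.2 kb downstream with no RefSeq gene at the peak. The sites also differed in extent, from 2 at Tlr6 and 3 at Tlr3 to 39 at Tlr4, which reached from 58.6 kb upstream to 651.2 kb downstream. Of the 158 sites, 41 appeared in a single table, 41 in 10 or more and 7 in all 15, and those 7 lay at the Cd14 promoter, 48.3 kb downstream of Tlr1, 7.2 kb upstream of Tlr13, 0.9 kb upstream of Tlr6, and 2.0 kb downstream, 3.8 kb upstream and 21.6 kb upstream of Tlr2. PU.1 was listed at all 10 genes. Its peak with most tags held 37.3 to 120.0 tags per 10 M over the 4 libraries at Tlr3 (4.5 kb upstream), 119 to 149 at Tlr7 (23.3 kb upstream, at a site inside the gene Prps2), 198 to 241 at Tlr1 (48.3 kb downstream) and 396 to 502 at Tlr6 (0.8 kb upstream).

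**Figure D2:**
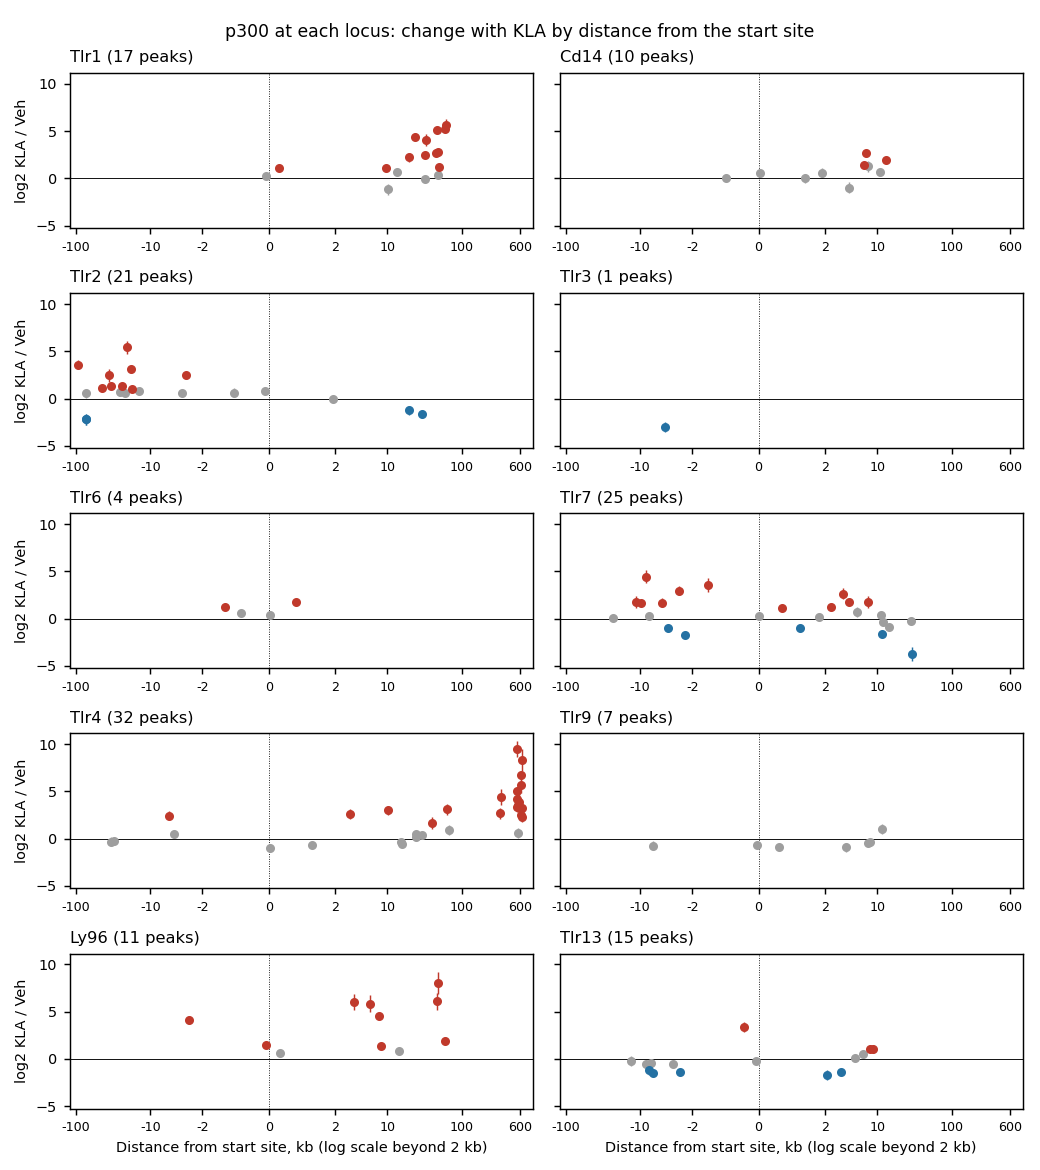
Change in p300 with KLA against Veh (y axis, log2 of KLA over Veh, with bars of 1 SE) by distance from the gene's start (x axis, kb, linear within 2 kb and logarithmic beyond), 1 panel per gene, with peaks called higher in red, lower in blue and not called in grey. The 15 blue points lie at Tlr2, Tlr3, Tlr7 and Tlr13, and the red points at Tlr4 lie on both sides of the start and as far as 651.2 kb downstream. Points of peaks without Veh tags depend on the model's prior count.

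Tlr1 (chromosome 5, 64924680 to 64933600, minus strand) had peaks called higher with KLA close to its start and beyond its 3′ end, but not at the promoter for PGC1b and p300. At the promoter, PGC1b tags were 75.8 and 108 with Veh and 117 and 62.3 with KLA. The groups overlapped and the peak was not called (log2 difference -0.07). The p300 level there was 30.1 and 25.6 with Veh and 28.6 and 38.9 with KLA, again with overlap (log2 difference 0.27). Intronic peaks lay 0.3 kb from an annotated start inside the gene, not the start used for the peaks 0.9 kb upstream. At these intronic peaks p300 was 24.4 and 24.97 with Veh and 55.2 and 49.7 with KLA. The p65 level was 36.8 and 26.1 with Veh and 92.2 and 94.4 with KLA. Both KLA libraries lay above both Veh libraries for each factor (log2 difference 1.09, SE 0.30, adjusted p = 0.0053, not called at 0.57 with TMM factors for p300, and log2 difference 1.56, SE 0.32, adjusted p = 0.0014, not called at 0.33 with TMM factors for p65). HDAC3 at 0.3 kb was 34.2 and 34.3 with Veh and 69.7 and 123 with KLA (log2 difference 1.45, SE 0.40, adjusted p = 0.0012). PU.1 rose 0.9 kb upstream, 16.03 and 20.5 with Veh and 77.2 and 75.2 with KLA (log2 difference 2.07, SE 0.22, adjusted p = 9.8e-16), and so did HDAC3, 4.36 and 11.6 with Veh and 28.1 and 64.98 with KLA (log2 difference 2.42, SE 0.57, adjusted p = 0.00015). For p300 0.3 kb downstream the call was lost without KLA replicate 1 (adjusted p = 0.073). A call of HDAC3 0.3 kb downstream ended without Veh replicate 1 (adjusted p = 0.22) or Veh replicate 2 (adjusted p = 0.22). The call of HDAC3 0.9 kb upstream did not hold without Veh replicate 1 (adjusted p = 0.099).

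Downstream of Tlr1, peaks called higher lay among other places 45.5 to 61.0 kb from the start, in introns of the non-coding gene Gm31889 and beyond. At 46.4 kb, p300 was 3.76 and 11.2 with Veh and 259 and 264 with KLA. Both KLA libraries lay far above both Veh libraries, which held few tags (log2 difference 5.13, SE 0.28, adjusted p = 5.9e-10). At the same site p65 was 0.876 and 19.6 with Veh and 354 and 397 with KLA (log2 difference 5.22, SE 0.51, adjusted p = 1e-05). NCoR was 5.97 and 15.3 with Veh and 163 and 172 with KLA (log2 difference 3.96, SE 0.37, adjusted p = 6.1e-05). HDAC3, the deacetylase bound to NCoR, was 9.46 and 15.5 with Veh and 187 and 376 with KLA (log2 difference 4.44, SE 0.43, adjusted p = 1.8e-22). The coactivator PGC1b was 0.588 and 6.04 with Veh and 49.1 and 40.6 with KLA (log2 difference 3.63, SE 0.59, adjusted p = 0.00025). ERK1 was 7.87 and 1.16 with Veh and 36.9 and 46.3 with KLA (log2 difference 3.27, SE 0.81, adjusted p = 0.024). Fosl2 was 11.3 and 6.29 with Veh and 279 and 309 with KLA (log2 difference 5.06, SE 0.87, adjusted p = 7.7e-07). All 7 factors thus rose at 1 site, NCoR and HDAC3 as well as p300 and PGC1b. For ERK1 46.4 kb downstream the call was lost without KLA replicate 1 (adjusted p = 0.058) or KLA replicate 2 (adjusted p = 0.14). A call of Fosl2 46.4 kb downstream ended without Veh replicate 1 (adjusted p = 0.16) or Veh replicate 2 (adjusted p = 0.3).

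The neighbouring sites of Tlr1 rose for some of these factors. At 60.2 kb, p300 was 3.13 and 9.86 with Veh and 224 and 263 with KLA (log2 difference 5.23, SE 0.30, adjusted p = 8.6e-10). NCoR was 14.3 and 9.42 with Veh and 111 and 107 with KLA (log2 difference 3.19, SE 0.36, adjusted p = 0.00014). At 45.5 kb, p300 started from a higher level, 84.6 and 45.3 with Veh and 409 and 453 with KLA (log2 difference 2.72, SE 0.21, adjusted p = 1.8e-08). The p65 level at 45.5 kb was 32.4 and 48.5 with Veh and 548 and 564 with KLA (log2 difference 3.78, SE 0.23, adjusted p = 8.8e-07). ERK1 was 39.3 and 24.3 with Veh and 120.5 and 132 with KLA (log2 difference 2.00, SE 0.38, adjusted p = 0.012). NCoR at 45.5 kb was 173 and 141 with Veh and 293 and 315 with KLA, higher without overlap but under 2-fold (log2 difference 0.95). PU.1 was 49.1 and 57.3 with Veh and 138 and 141 with KLA there (log2 difference 1.40, SE 0.14, adjusted p = 2.1e-16), 49.1 and 59.7 with Veh and 172 and 171 with KLA at 31.9 kb (log2 difference 1.66, SE 0.13, adjusted p = 5.7e-23) and 24.8 and 18.7 with Veh and 96.8 and 106 with KLA at 19.7 kb (log2 difference 2.20, SE 0.20, adjusted p = 4.4e-20). Of the 7 PU.1 peaks called higher at the loci, these are 3. At 23.3 kb, the AP-1 window shown above, p300 was 3.76 and 5.26 with Veh and 102 and 92.4 with KLA (log2 difference 4.41, SE 0.35, adjusted p = 3.1e-08). NCoR at 23.3 kb had no tag in either Veh library and 42.1 and 51.9 with KLA, so it was at least 26.6-fold higher (against a floor of 3 tags over the group, as for each such bound), and PGC1b, also without Veh tags and with 42.6 and 26.3 with KLA, was at least 41-fold higher.

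Tlr2 (chromosome 3, 83836272 to 83841824, minus strand) gained p65 at its promoter and gained or lost further factors at distal sites. The p65 level at the promoter was 59.5 and 59.7 with Veh and 161 and 222 with KLA (log2 difference 1.68, SE 0.25, adjusted p = 0.0002, not called at 0.45 with TMM factors). The p300 level there was 60.8 and 54.5 with Veh and 102 and 92.96 with KLA, without overlap but under 2-fold (log2 difference 0.76). At 2.0 kb downstream, a site in all 15 tables, PU.1 was 254 and 275 with Veh and 198 and 219 with KLA and p300 was 123 and 136 with Veh and 126 and 132 with KLA. Neither was called (log2 differences -0.34 and 0.00). At the AP-1 window 3.3 kb upstream, p300 was 7.52 and 18.4 with Veh and 63.9 and 79.99 with KLA (log2 difference 2.47, SE 0.37, adjusted p = 2.6e-05). Here p65 was 3.50 and 4.66 with Veh and 72.8 and 78.7 with KLA (log2 difference 4.19, SE 0.47, adjusted p = 2.7e-05). NCoR was 4.78 and 10.6 with Veh and 45.4 and 32.5 with KLA (log2 difference 2.32, SE 0.54, adjusted p = 0.0058). At all of them both KLA libraries lay above both Veh libraries. Further upstream, 33.7 kb from the start, ERK1 was 14.2 and 17.3 with Veh and 83.6 and 80.3 with KLA (log2 difference 2.36, SE 0.46, adjusted p = 0.012). NCoR was 75.3 and 91.8 with Veh and 191 and 178 with KLA (log2 difference 1.14, SE 0.22, adjusted p = 0.0022). The call of NCoR 3.3 kb upstream was lost without KLA replicate 1 (adjusted p = 0.19) or KLA replicate 2 (adjusted p = 0.053). For NCoR 33.7 kb upstream the call ended without KLA replicate 1 (adjusted p = 0.06).

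Other Tlr2 sites gained tags from almost none or lost them. At 20.6 kb upstream p300 was 0.627 and 0.657 with Veh and 26.6 and 34.6 with KLA, a ratio of 47.5 with a 95% counting interval of 12.9 to 397. At 93.8 kb upstream, in an intron of Tmem131l, NCoR went from no tags to 29.2 and 26.98 with KLA, which was at least 15.7-fold higher. ERK1 also had no Veh tags at an exon 3.6 kb downstream and 23.4 and 25.9 with KLA, at least 12.3-fold higher. In the other direction, p300 at 29.5 kb downstream was 47.01 and 40.7 with Veh and 10.2 and 17.8 with KLA (log2 difference -1.65, SE 0.38, adjusted p = 0.0015) and at 19.6 kb downstream 30.1 and 28.9 with Veh and 18.4 and 5.94 with KLA (log2 difference -1.26, SE 0.48, adjusted p = 0.031). NCoR at 19.6 kb was 43.02 and 63.6 with Veh and 14.6 and 20.1 with KLA (log2 difference -1.61, SE 0.42, adjusted p = 0.0096). The other pair of p300 peaks called lower lay 71.7 and 72.7 kb upstream, and at 72.7 kb p300 was 11.9 and 17.1 with Veh and 2.56 and 3.78 with KLA (log2 difference -2.17, SE 0.58, adjusted p = 0.0041). A call of NCoR 93.8 kb upstream was lost without KLA replicate 1 (adjusted p = 0.052). The call of ERK1 3.6 kb downstream ended without KLA replicate 1 (adjusted p = 0.19) or KLA replicate 2 (adjusted p = 0.23). For p300 19.6 kb downstream the call did not hold without KLA replicate 2 (adjusted p = 0.31). A call of NCoR 19.6 kb downstream was lost without KLA replicate 1 (adjusted p = 0.12) or KLA replicate 2 (adjusted p = 0.06). The call of p300 72.7 kb upstream ended without KLA replicate 1 (adjusted p = 0.14) or KLA replicate 2 (adjusted p = 0.08).

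Tlr6 (chromosome 5, 64953092 to 64970942, minus strand) had 2 sites, both close to the annotated start from which distances were measured. That start lies inside the RefSeq span given here, and so do both sites. At 0.8 kb downstream, in its own intron, NCoR was 28.7 and 34.1 with Veh and 160.4 and 181 with KLA (log2 difference 2.44, SE 0.26, adjusted p = 0.00012). PGC1b was 8.81 and 10.7 with Veh and 65.5 and 49.2 with KLA (log2 difference 2.53, SE 0.41, adjusted p = 0.00023). Both factors rose in every KLA library. Scaled p65 tags were 35.02 and 34.5 with Veh and 181 and 172 with KLA (log2 difference 2.34, SE 0.25, adjusted p = 2.2e-05). HDAC3 was 44.4 and 47 with Veh and 151 and 221 with KLA (log2 difference 2.01, SE 0.37, adjusted p = 8.5e-07). The level of p300 was 20.1 and 36.8 with Veh and 98.2 and 96.2 with KLA (log2 difference 1.78, SE 0.28, adjusted p = 4.5e-05). On the other side of that start, 0.8 kb upstream of it but still inside the RefSeq gene, lay a PU.1 peak. PU.1 there was high in all libraries, 454 and 502 with Veh and 396 and 421 with KLA, and not called (log2 difference -0.22). NCoR there was 90.8 and 97.7 with Veh and 98.01 and 107 with KLA (log2 difference 0.12). At 1.3 kb upstream p300 was 92.1 and 43.4 with Veh and 169.8 and 156 with KLA (log2 difference 1.26, SE 0.25, adjusted p = 0.00037, not called at 0.75 with TMM factors). The p65 level there was 30.6 and 30.8 with Veh and 98.2 and 140.2 with KLA (log2 difference 1.95, SE 0.31, adjusted p = 0.00029, not called at 0.72 with TMM factors). For HDAC3 0.8 kb downstream the call was lost without Veh replicate 1 (adjusted p = 0.091) or Veh replicate 2 (adjusted p = 0.078). A call of p300 1.3 kb upstream ended without Veh replicate 2 (log2 difference 0.82).

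Tlr4 (chromosome 4, 66827551 to 66846581, plus strand), the receptor for KLA itself, lost NCoR at its start. NCoR at the promoter was 238 and 354 with Veh and 139 and 136 with KLA (log2 difference -1.10, SE 0.22, adjusted p = 0.0026). PU.1 was 416 and 447 with Veh and 258 and 257 with KLA, lower without overlap but under 2-fold (log2 difference -0.74). Levels of p300 were 231 and 166 with Veh and 103 and 101 with KLA, with both KLA libraries below both Veh libraries (log2 difference -0.97, called at -1.48 with TMM factors). HDAC3 was 372 and 309 with Veh and 144 and 277 with KLA, also below without overlap (log2 difference -0.72, called at -1.06 with TMM factors). For p65, tags were 73.5 and 81.1 with Veh and 82.8 and 77.3 with KLA, with overlap (log2 difference 0.05, called at -1.17 with TMM factors). At 15.9 kb downstream, annotated as 3′ UTR, NCoR was 269 and 357 with Veh and 131 and 137 with KLA (log2 difference -1.22, SE 0.20, adjusted p = 0.00098). PU.1 was 191 and 202 with Veh and 90.3 and 85.4 with KLA (log2 difference -1.16, SE 0.12, adjusted p = 2.8e-17, not called at -0.74 with TMM factors). PU.1 fell most at 21.7 kb downstream, to a few tags, 32.1 and 39.2 with Veh and 5.89 and 1.27 with KLA (log2 difference -3.29, SE 0.34, adjusted p = 2.2e-16). NCoR also fell 30.7 kb upstream, 76.5 and 119 with Veh and 42.1 and 31.8 with KLA (log2 difference -1.41, SE 0.33, adjusted p = 0.0058). The call of NCoR at the start was lost without Veh replicate 2 (log2 difference -0.79). For NCoR 30.7 kb upstream the call ended without KLA replicate 2 (adjusted p = 0.11).

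Far downstream of Tlr4, in a stretch with no RefSeq gene at the peaks, tags appeared with KLA that were almost absent with Veh. At 555.8 kb, p300 was 5.01 and 2.63 with Veh and 130.4 and 124 with KLA (log2 difference 5.02, SE 0.34, adjusted p = 5e-09). NCoR was 5.97 and 14.1 with Veh and 78.6 and 78.9 with KLA (log2 difference 2.95, SE 0.43, adjusted p = 0.00052). HDAC3 was 16.7 and 15.5 with Veh and 90.8 and 144 with KLA (log2 difference 2.84, SE 0.43, adjusted p = 7.3e-10). PGC1b was 4.11 and 3.72 with Veh and 69.9 and 34.9 with KLA (log2 difference 3.69, SE 0.51, adjusted p = 6.8e-05). p65, with 3 tags over the Veh libraries, gave a ratio of 81.8 with a 95% counting interval of 27.8 to 399. The same held at 553.7 kb, the AP-1 window shown above, where p300 had no Veh tag and 49.6 and 54.6 with KLA, at least 54.1-fold higher, and p65 had none and 21.4 and 22.6 with KLA, at least 16.2-fold higher. At 630.6 kb p300 was 0 and 1.97 with Veh and 108 and 108 with KLA, a ratio of 112 with a 95% counting interval of 38.1 to 546. NCoR there had no Veh tag and 34.8 and 47.7 with KLA, at least 23.5-fold higher, and Fosl2 had none and 79.1 and 165 with KLA, at least 75.5-fold higher. At 620.4 kb p300 started from more tags, 25.1 and 16.4 with Veh and 124 and 106 with KLA (log2 difference 2.47, SE 0.27, adjusted p = 9.2e-07), and at 551.9 kb NCoR was 8.36 and 2.35 with Veh and 57.5 and 56.03 with KLA (log2 difference 3.38, SE 0.54, adjusted p = 0.00082). The farthest p300 peak, 651.2 kb downstream, had no Veh tag and 23.5 and 22.7 with KLA, at least 24-fold higher. A call of Fosl2 630.6 kb downstream was lost without Veh replicate 1 (adjusted p = 0.056) or Veh replicate 2 (adjusted p = 0.075).

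Ly96 (chromosome 1, 16688456 to 16709605, plus strand), whose product MD-2 holds lipid A beneath TLR4, gained p300 and p65 at its promoter and in its introns. At 0.1 kb upstream p300 was 90.9 and 67.7 with Veh and 215 and 221 with KLA (log2 difference 1.45, SE 0.18, adjusted p = 3.7e-06, not called at 0.94 with TMM factors). The p65 tags were 45.5 and 52.2 with Veh and 248 and 259 with KLA (log2 difference 2.37, SE 0.23, adjusted p = 9.4e-06). NCoR was 114 and 119 with Veh and 185 and 193 with KLA, higher without overlap but under 2-fold (log2 difference 0.70). At 7.7 kb downstream, in an intron, NCoR was 4.78 and 3.53 with Veh and 89.1 and 96.8 with KLA (log2 difference 4.45, SE 0.44, adjusted p = 8.1e-05). The tags of p300 were 3.76 and 2.63 with Veh and 83.9 and 62.7 with KLA (log2 difference 4.49, SE 0.42, adjusted p = 2.1e-07). HDAC3 was 0 and 3.87 with Veh and 84.98 and 183 with KLA (log2 difference 5.86, SE 0.55, adjusted p = 8.8e-24). Here p65 was 9.63 and 4.66 with Veh and 182 and 194 with KLA (log2 difference 4.69, SE 0.36, adjusted p = 2.2e-06). All KLA libraries lay above all Veh libraries at these peaks. At the AP-1 window 8.3 kb downstream p300 was 35.1 and 25.6 with Veh and 86.5 and 66.5 with KLA (log2 difference 1.33, SE 0.28, adjusted p = 0.00059, not called at 0.81 with TMM factors), and at the kappaB window 5.8 kb downstream it was 0 and 0.657 with Veh and 26.1 and 18.4 with KLA, a ratio of 69.6 with a 95% counting interval of 12.2 to 2780. PU.1 rose 3.0 kb upstream, 54.8 and 49.8 with Veh and 145 and 152 with KLA (log2 difference 1.50, SE 0.14, adjusted p = 1.2e-18).

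At 59.0 kb downstream of Ly96 the factors moved in opposite directions. NCoR was 152 and 201 with Veh and 94.8 and 75.4 with KLA and fell (log2 difference -1.06, SE 0.24, adjusted p = 0.0049). Scaled p300 tags were 15.7 and 12.5 with Veh and 54.7 and 52.96 with KLA and rose (log2 difference 1.93, SE 0.34, adjusted p = 0.00014). Neither factor's groups overlapped. At 46.7 kb p65 had no Veh tag and 55.4 and 56.1 with KLA, at least 41.2-fold higher. The call of NCoR 59.0 kb downstream was lost without KLA replicate 2 (adjusted p = 0.12) or Veh replicate 2 (log2 difference -0.84).

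Cd14 (chromosome 18, 36725064 to 36726815, minus strand) had NCoR, PU.1 and p300 at its promoter with Veh and with KLA. At its promoter NCoR was 321 and 374 with Veh and 397 and 302 with KLA and PU.1 was 271 and 298 with Veh and 279 and 294 with KLA. In both cases the groups overlapped and the log2 differences were 0.01 and 0.01. The level of p300 was 169.9 and 154 with Veh and 248 and 245 with KLA, higher without overlap but under 2-fold (log2 difference 0.61). Tags of p65 were 85.8 and 89.5 with Veh and 269 and 282 with KLA and rose (log2 difference 1.65, SE 0.20, adjusted p = 5.2e-05, not called at 0.43 with TMM factors). The larger changes lay downstream. At 6.7 kb p65 was 27.1 and 43.8 with Veh and 276 and 265 with KLA (log2 difference 2.93, SE 0.26, adjusted p = 6.3e-06). Levels of p300 were 124 and 78.9 with Veh and 275 and 263 with KLA (log2 difference 1.40, SE 0.19, adjusted p = 8.8e-06, not called at 0.89 with TMM factors). At 13.3 kb, in the non-coding gene Gm41699, p65 was 21.9 and 25.2 with Veh and 278 and 332 with KLA (log2 difference 3.69, SE 0.25, adjusted p = 1.4e-06). For p300, tags were 62.7 and 61.8 with Veh and 259.9 and 230.2 with KLA (log2 difference 1.98, SE 0.17, adjusted p = 7.4e-08).

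**Figure D3:**
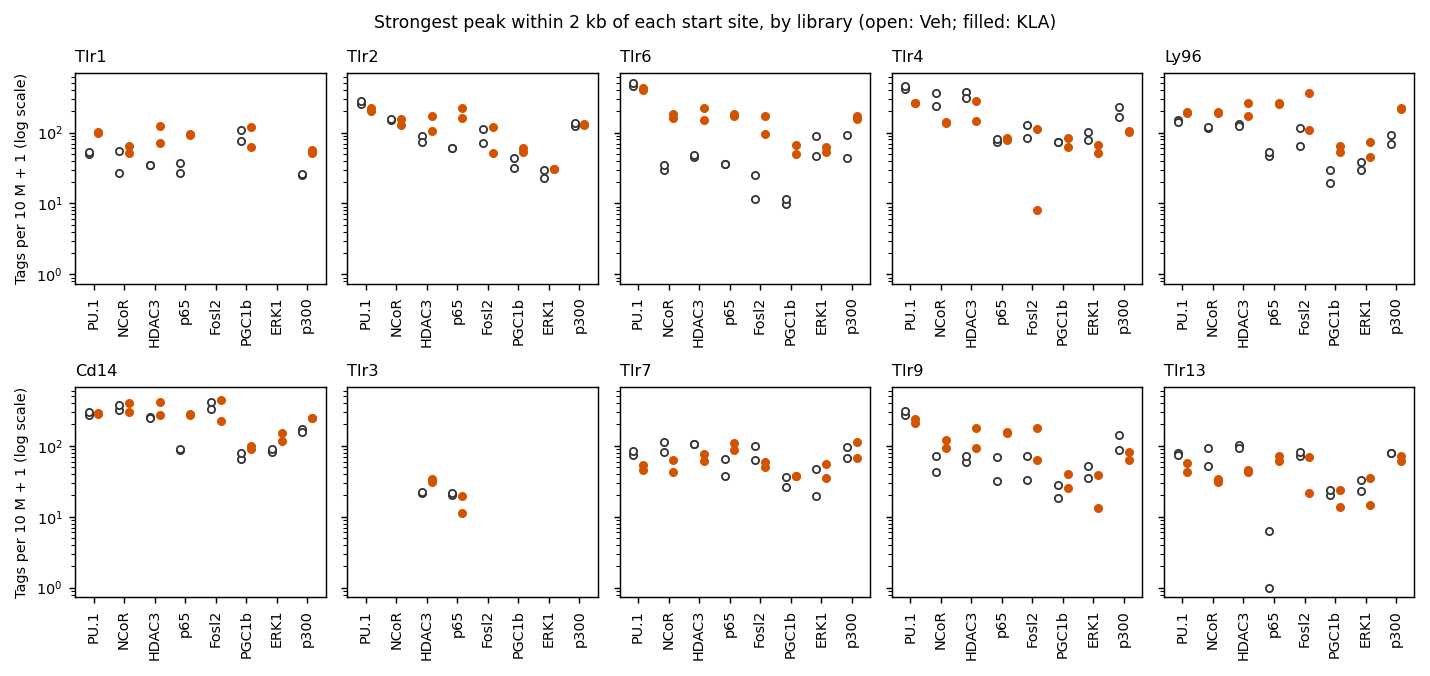
Tags per 10 M plus 1 (y axis, log scale) at the peak with most tags within 2 kb of each gene's start, for each factor with such a peak (x axis), with 1 point per library, open for Veh and filled for KLA. The p65 points of Ly96 and Cd14 stand apart between Veh and KLA, and the PU.1 and NCoR points of Cd14 overlap.

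Among the endosomal receptors, Tlr3 (chromosome 8, 45395665 to 45411075, minus strand) had 3 sites, and the peaks 4.6 kb upstream fell for 5 factors. The p300 tags were 30.7 and 34.2 with Veh and 3.07 and 4.86 with KLA (log2 difference -3.01, SE 0.50, adjusted p = 8.2e-05). PU.1 was 120.0 and 98.96 with Veh and 37.3 and 44.6 with KLA (log2 difference -1.42, SE 0.17, adjusted p = 1.4e-13). The window shown above holds a PU.1 match. The tags of p65 were 25.4 and 30.8 with Veh and 3.34 and 6.84 with KLA (log2 difference -2.44, SE 0.58, adjusted p = 0.0036), the 1 p65 peak of the 104 that was called lower. NCoR was 47.8 and 64.7 with Veh and 25.1 and 8.99 with KLA (log2 difference -1.74, SE 0.49, adjusted p = 0.015). HDAC3 was 75.7 and 82.9 with Veh and 24.6 and 31.6 with KLA (log2 difference -1.53, SE 0.43, adjusted p = 0.0014). All KLA libraries lay below all Veh libraries in each. For p65 4.6 kb upstream the call was lost without KLA replicate 1 (adjusted p = 0.12) or KLA replicate 2 (adjusted p = 0.0501). A call of NCoR 4.6 kb upstream ended without KLA replicate 2 (adjusted p = 0.18). The call of HDAC3 4.7 kb upstream did not hold without Veh replicate 1 (adjusted p = 0.13) or Veh replicate 2 (adjusted p = 0.19).

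At Tlr7 (chromosome X, 167303380 to 167330574, minus strand), peaks inside the gene moved apart. At 4.2 kb downstream, in an intron, p65 was 14.01 and 14.9 with Veh and 122 and 174 with KLA (log2 difference 3.34, SE 0.34, adjusted p = 1.4e-05). Here p300 was 28.8 and 31.5 with Veh and 97.7 and 101 with KLA (log2 difference 1.72, SE 0.24, adjusted p = 1.5e-05). Both rose without overlap. At 11.6 kb, also intronic, p300 was 71.5 and 93.96 with Veh and 24.04 and 30.3 with KLA (log2 difference -1.61, SE 0.27, adjusted p = 9.8e-05). PGC1b was 39.4 and 39.05 with Veh and 8.74 and 9.72 with KLA (log2 difference -2.06, SE 0.44, adjusted p = 0.0024). HDAC3 was 87.3 and 90.7 with Veh and 30.5 and 22.8 with KLA (log2 difference -1.69, SE 0.42, adjusted p = 0.00027). NCoR was 77.7 and 98.9 with Veh and 39.7 and 36.7 with KLA (log2 difference -1.21, SE 0.30, adjusted p = 0.0078), so p300, PGC1b, HDAC3 and NCoR fell at the same site. A similar contrast stood upstream, where p300 was 107 and 80.2 with Veh and 37.3 and 20.5 with KLA at 2.5 kb (log2 difference -1.69, SE 0.29, adjusted p = 0.00011) and 5.01 and 4.60 with Veh and 37.3 and 38.4 with KLA at 3.0 kb (log2 difference 2.96, SE 0.46, adjusted p = 4.5e-05). For HDAC3 11.6 kb downstream the call was lost without Veh replicate 1 (adjusted p = 0.086) or Veh replicate 2 (adjusted p = 0.1). A call of NCoR 11.6 kb downstream ended without KLA replicate 1 (adjusted p = 0.089) or KLA replicate 2 (adjusted p = 0.12).

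Tlr9 (chromosome 9, 106222598 to 106226876, plus strand) had no p300 peak called in either direction. The p300 level at its promoter was 142 and 86.1 with Veh and 61.4 and 81.1 with KLA (log2 difference -0.68, called at -1.19 with TMM factors). The p65 level there was 30.6 and 68.98 with Veh and 155 and 149 with KLA, higher in both KLA libraries (log2 difference 1.62, SE 0.33, adjusted p = 0.0015, not called at 0.41 with TMM factors). PU.1 was 272 and 312 with Veh and 237 and 210.3 with KLA and not called (log2 difference -0.38).

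At Tlr13 (chromosome X, 106143275 to 106160493, plus strand) NCoR, HDAC3, PU.1 and p300 fell at upstream sites. At 6.8 kb upstream, whose window holds 3 PU.1 matches, NCoR was 158 and 181 with Veh and 43.7 and 60.9 with KLA (log2 difference -1.69, SE 0.25, adjusted p = 0.00059). PU.1 was 236 and 274 with Veh and 95.5 and 119 with KLA (log2 difference -1.25, SE 0.11, adjusted p = 1.1e-21, not called at -0.83 with TMM factors). HDAC3 was 159 and 162 with Veh and 47.5 and 68.5 with KLA (log2 difference -1.50, SE 0.38, adjusted p = 0.00032). Tags of p300 were 110.3 and 102 with Veh and 32.7 and 42.7 with KLA (log2 difference -1.49, SE 0.23, adjusted p = 4.4e-05). All 4 fell without overlap. At 2.9 kb upstream NCoR was 75.3 and 80.04 with Veh and 22.7 and 23.5 with KLA (log2 difference -1.74, SE 0.33, adjusted p = 0.0019). ERK1 was 34.6 and 38.2 with Veh and 4.92 and 0 with KLA (log2 difference -3.75, SE 0.93, adjusted p = 0.025), the 1 ERK1 peak of the loci called lower. HDAC3 there was 67.7 and 65.8 with Veh and 16.4 and 12.3 with KLA (log2 difference -2.15, SE 0.47, adjusted p = 3.5e-05). Closer to the start, 0.5 kb upstream, p300 was 3.76 and 3.29 with Veh and 41.9 and 31.3 with KLA (log2 difference 3.35, SE 0.50, adjusted p = 3e-05). Levels of p65 were 5.25 and 0 with Veh and 60.1 and 69.8 with KLA (log2 difference 4.54, SE 0.68, adjusted p = 0.0002), both rises from a few tags. The call of HDAC3 6.8 kb upstream was lost without Veh replicate 1 (adjusted p = 0.14) or Veh replicate 2 (adjusted p = 0.15). For ERK1 2.9 kb upstream the call ended without KLA replicate 2 (adjusted p = 0.086).

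The ERK inhibitor was compared with KLA alone in the NCoR and PGC1b libraries, to ask whether signalling through ERK bears on these factors. NCoR was called lower with KLA and ERKi at 61 of 99 peaks of the loci (61.6%) and higher at 0, beside 48.6% and 0.634% of all NCoR peaks. The ERKi libraries carry another date code than the KLA libraries, so ERKi and date cannot be told apart. The median log2 difference was -1.31 at the loci and -1.20 over all peaks. With TMM factors, which shift the median of all peaks by 1.16, 5 peaks were called lower and 0 higher, beside 3.38% and 3.45% of all. Without KLA replicate 1, 38 were called. The KLA libraries are those of the KLA against Veh comparison, counted over peaks that were merged anew, so Veh values are given beside them without a second test. At 9.5 kb downstream of Tlr1, NCoR was 151 and 142 with Veh, 153 and 201 with KLA and 31.3 and 20.7 with KLA and ERKi (log2 difference -2.76, SE 0.28, adjusted p = 5.2e-05 for ERKi). At 46.4 kb downstream of Tlr1 it was 5.97 and 15.3 with Veh, 184 and 194 with KLA and 34.7 and 31.03 with KLA and ERKi (log2 difference -2.52, SE 0.31, adjusted p = 0.00011). The ERKi libraries lay well under the KLA libraries and above or near the Veh libraries at 46.4 kb, and under the Veh libraries at 9.5 kb.

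Among the other peaks called with both scalings, NCoR at 551.9 kb downstream of Tlr4 was 8.36 and 2.35 with Veh, 57.5 and 56.03 with KLA and 0.845 and 6.03 with KLA and ERKi (log2 difference -4.01, SE 0.70, adjusted p = 0.00065). At 7.7 kb downstream of Ly96 it was 14.3 and 14.1 with Veh, 110.2 and 129 with KLA and 27.9 and 19.8 with KLA and ERKi (log2 difference -2.32, SE 0.34, adjusted p = 0.00025), and at 3.3 kb downstream of Tlr13 32.3 and 38.8 with Veh, 36.4 and 31.8 with KLA and 4.23 and 0 with KLA and ERKi (log2 difference -3.93, SE 0.76, adjusted p = 0.0012). At all of them both ERKi libraries lay below both KLA libraries. At the Tlr6 intron site NCoR was 28.7 and 34.1 with Veh, 169 and 183 with KLA and 61.7 and 70.7 with KLA and ERKi (log2 difference -1.41, SE 0.25, adjusted p = 0.00065, not called at -0.24 with TMM factors), and at the Tlr4 promoter, where KLA had already lowered it, 256 and 367 with Veh, 147 and 139.7 with KLA and 52.4 and 46.5 with KLA and ERKi (log2 difference -1.53, SE 0.24, adjusted p = 0.00033, not called at -0.37 with TMM factors). At 13.3 kb downstream of Cd14 it was 133 and 142 with Veh, 193 and 198 with KLA and 103 and 81.01 with KLA and ERKi (log2 difference -1.08, SE 0.21, adjusted p = 0.0013, not called at 0.08 with TMM factors), so the sign at Cd14 depended on the scaling. A call of NCoR 13.3 kb downstream of Cd14 was lost without ERKi KLA replicate 2 (log2 difference -0.92).

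**Figure D4:**
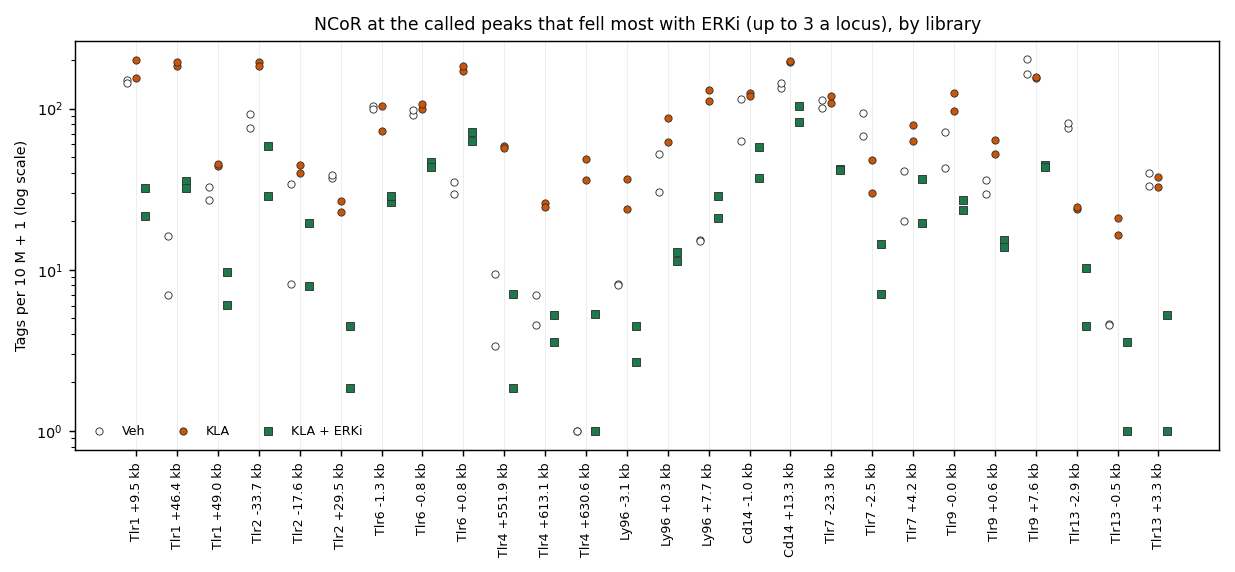
NCoR tags per 10 M plus 1 (y axis, log scale) at up to 3 peaks per locus called lower with ERKi that fell most (x axis, gene and distance from its start), 1 point per library for Veh (open), KLA (filled circle) and KLA with ERKi (square). The peaks were chosen for the fall, and in each column the squares lie under the filled circles.

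PGC1b showed no called difference between ERKi and DMSO, both with KLA, at any of 89 peaks by edgeR, beside 0.286% of all peaks. By unadjusted p under 0.05, 13 peaks differed, and DESeq2 called 4. The share of all peaks under that p is not given here. In simulated counts of this experiment, 30% of 200 peaks changed 3-fold were called for KLA against Veh. A change of that size can thus go uncalled. The median log2 difference was -0.48 at the loci and -0.20 over all peaks. In these libraries PGC1b 60.3 kb downstream of Tlr1 was 1.62 and 5.83 with DMSO and Veh, 130.3 and 153 with DMSO and KLA and 54.8 and 37.5 with ERKi and KLA (log2 difference 5.38, SE 0.60, adjusted p = 1.1e-06 for KLA against Veh). At the Tlr6 intron site it was 16.2 and 16.03 with DMSO and Veh, 94.7 and 72.9 with DMSO and KLA and 70.4 and 112 with ERKi and KLA (log2 difference 2.36, SE 0.48, adjusted p = 0.001 for KLA), and 13.3 kb downstream of Cd14 21.9 and 21.9 with DMSO and Veh, 103 and 86.3 with DMSO and KLA and 26.6 and 69.8 with ERKi and KLA (log2 difference 2.10, SE 0.51, adjusted p = 0.005 for KLA). The KLA libraries with DMSO lay above the Veh libraries at each of them. The call of PGC1b 13.3 kb downstream of Cd14 was lost without DMSO Veh replicate 1 (adjusted p = 0.068).

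H3K27ac was counted at 30 tested regions of the loci in the HDAC3 inhibitor experiment and at 31 in the Pgc1b experiment. With DMSO, KLA raised 8 and lowered 8 of 30, beside 6.73% and 28.1% of all regions. With TMM factors it raised 10 and lowered 3, beside 12.5% and 17.2% of all. RGFP966 with KLA raised 6 (20.0%) and lowered 0 against DMSO with KLA, beside 26.9% and 9.53% of all regions. With TMM factors RGFP966 raised 4 and lowered 1, beside 16.1% and 18.9% of all. Both comparisons use the DMSO KLA libraries, so the groups are given together. At 15.9 kb downstream of Tlr4, H3K27ac was 179 and 191 with DMSO and Veh, 51.8 and 42.9 with DMSO and KLA and 152 and 108 with RGFP966 and KLA. The level was low with KLA and DMSO and nearer the Veh level with RGFP966 (log2 difference 1.45, SE 0.24, adjusted p = 3e-08 for RGFP966, log2 difference -1.95, SE 0.24, adjusted p = 1.2e-14 for KLA). At 24.6 kb it was 99.7 and 75.9 with DMSO and Veh, 33.03 and 34.5 with DMSO and KLA and 159 and 110.4 with RGFP966 and KLA (log2 difference 1.99, SE 0.26, adjusted p = 4.6e-13 for RGFP966), and at 29.8 kb 135 and 152 with DMSO and Veh, 53.7 and 56.4 with DMSO and KLA and 152 and 136 with RGFP966 and KLA (log2 difference 1.39, SE 0.24, adjusted p = 6e-08 for RGFP966). At 29.5 kb downstream of Tlr2 it was 68.1 and 88.96 with DMSO and Veh, 19.4 and 11.8 with DMSO and KLA and 42.8 and 45.4 with RGFP966 and KLA (log2 difference 1.46, SE 0.32, adjusted p = 2.1e-05 for RGFP966, log2 difference -2.29, SE 0.31, adjusted p = 1.2e-12 for KLA). At 14.6 kb downstream of Ly96 the order differed, since RGFP966 raised a region that KLA had raised, 42.4 and 30.5 with DMSO and Veh, 83.5 and 77.4 with DMSO and KLA and 215 and 184 with RGFP966 and KLA (log2 difference 1.30, SE 0.23, adjusted p = 8.5e-08, not called at 0.96 with TMM factors for RGFP966).

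At the Tlr1 site 48.3 kb downstream H3K27ac was 336 and 386 with DMSO and Veh, 669 and 576 with DMSO and KLA and 416 and 321 with RGFP966 and KLA. It was lower with RGFP966 in both libraries, by under 2-fold (log2 difference -0.76, called at -1.11 with TMM factors). The Tlr2 promoter was 63.95 and 60.2 with DMSO and Veh, 231 and 197 with DMSO and KLA and 177 and 168 with RGFP966 and KLA (log2 difference 1.79, SE 0.23, adjusted p = 2.8e-13 for KLA), and the RGFP966 libraries lay below the DMSO KLA libraries without a call (log2 difference -0.31). The accessory genes listed above had 18 of 44 regions called higher with RGFP966 and 0 lower, with a median log2 difference of 0.98 beside 0.39 over all regions and 0.14 at the loci. The adaptors had 3 of 20 higher and 4 lower. Of all regions, 26.9% were called higher and 9.53% lower. Counts of these lists with TMM factors are not given here. The summed H3K27ac tags of the 6 macrophage markers near their starts were 2558 to 2577 with DMSO and Veh, 1822 to 2274 with DMSO and KLA and 1698 to 1912 with RGFP966 and KLA. The summed tags of the 3 dendritic cell markers listed were 541 to 579, 139 to 141 and 270.3 to 301 in the same order, and those of the 1 neutrophil marker 56.5 to 58.4, 17.7 to 35.0 and 77.2 to 81.0. The part of these markers in the results was not tested.

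**Figure D5:**
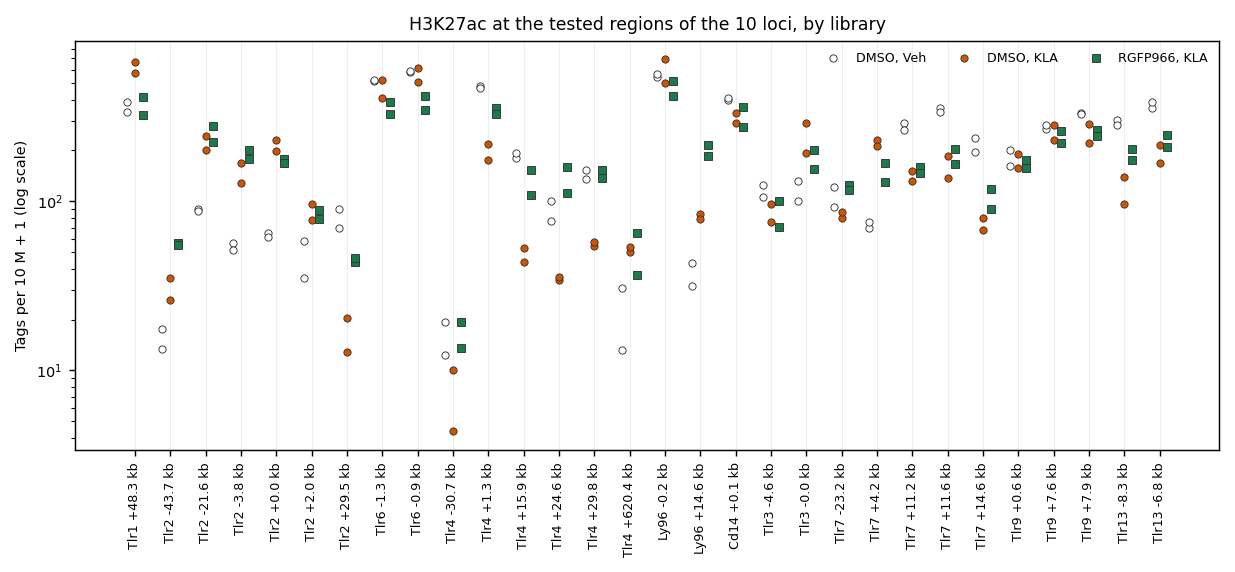
H3K27ac tags per 10 M plus 1 (y axis, log scale) at the 30 tested regions of the loci (x axis, gene and distance from its start), 1 point per library for DMSO with Veh (open), DMSO with KLA (filled circle) and RGFP966 with KLA (square). At Tlr4 15.9 to 29.8 kb downstream the squares lie near or above the open circles and the filled circles below both.

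Deletion of NCoR was examined at 17 tested regions, of which 7 were near Tlr2 and none near Tlr7 or Ly96. In WT, KLA raised 3 (17.6%) and lowered 0, beside 6.49% and 3.72% of all regions, and in NKO it raised 3 and lowered 1, beside 2.75% and 7.96%. With TMM factors it raised 3 and lowered 1 in WT, beside 4.84% and 5.18% of all. In NKO it then raised 3 and lowered 0, beside 4.29% and 5.32%. With library totals, Tlr2 held 2 of the 3 regions called higher in WT and Tlr1 the other. The 2 at Tlr2 lay 3.4 and 3.8 kb upstream, at 1 joined site. Tlr2 also held all 3 called higher in NKO, so these shares rest mostly on Tlr2. In WT the calls numbered 5 without KLA replicate 1 and 1 without KLA replicate 2, and in NKO 2 without KLA replicate 2 or Veh replicate 1. At 3.4 kb upstream of Tlr2, H3K27ac was 35.3 and 28.5 with Veh and 52.2 and 92.4 with KLA in WT, against 29.5 and 35.98 with Veh and 93.4 and 88.2 with KLA in NKO. KLA libraries lay above Veh libraries in both genotypes (log2 difference 1.18, SE 0.27, adjusted p = 0.0013 in WT, log2 difference 1.46, SE 0.27, adjusted p = 8.5e-05 in NKO), and the interaction term did not show a difference between the responses (log2 difference 0.28, SE 0.38, adjusted p = 0.79). At 45.4 kb downstream of Tlr1 it was 8.20 and 12.2 with Veh and 31.4 and 73.1 with KLA in WT, against 21.4 and 16.3 with Veh and 27.1 and 37.5 with KLA in NKO (log2 difference 2.32, SE 0.40, adjusted p = 3.2e-05 in WT, log2 difference 0.78 in NKO). The interaction there was -1.55 with an adjusted p of 0.19, so a difference between genotypes was not shown. At 7.2 kb upstream of Tlr13 it was 55.5 and 38.2 with Veh and 20.1 and 28.3 with KLA in WT, against 50.9 and 47.6 with Veh and 28.7 and 15.97 with KLA in NKO, and this was the 1 region that KLA lowered in NKO (log2 difference -1.11, SE 0.33, adjusted p = 0.017, not called at -0.91 with TMM factors). At 0.9 kb upstream of Tlr6, H3K27ac was 69.98 and 70.8 with Veh and 102 and 95.1 with KLA in WT, against 89.96 and 69.6 with Veh and 48.3 and 56.9 with KLA in NKO, lower in NKO with KLA by under 2-fold (log2 difference -0.91, adjusted p = 0.022). No region was called between NKO and WT with Veh by edgeR (0 at unadjusted p under 0.05, 0 by DESeq2, beside 1.00% of all called in either direction), none with KLA (3 at unadjusted p under 0.05, 0 by DESeq2, beside 0.789%) and none for the KLA response (3 at unadjusted p under 0.05, 1 by DESeq2, 1 without NKO Veh replicate 2 and 2 without WT KLA replicate 1, beside 0.697%). The summed H3K27ac of the 3 macrophage markers listed was 59.3 to 72.8 with Veh and 49.05 to 71.7 with KLA in WT, and 83.3 to 101 with Veh and 59.5 to 79.2 with KLA in NKO. The 1 dendritic cell marker listed was at 0 to 2.65, and the part of either in these values was not tested. For H3K27ac in WT 3.4 kb upstream of Tlr2 the call was lost without WT KLA replicate 2 (adjusted p = 0.15) or WT Veh replicate 2 (adjusted p = 0.07). A call of H3K27ac in NKO 7.2 kb upstream of Tlr13 ended without NKO KLA replicate 2 (adjusted p = 0.22), NKO Veh replicate 1 (adjusted p = 0.084) or NKO Veh replicate 2 (adjusted p = 0.0505).

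In Pgc1b flox BMDMs, KLA raised H3K27ac at 6 of 31 regions (19.4%) and lowered it at 5 (16.1%), beside 5.22% and 25.6% of all. With TMM factors it raised 10 and lowered 1, beside 9.84% and 13.8% of all. In flox Cre BMDMs KLA raised 4 (12.9%) and lowered 9 (29.0%), beside 4.18% and 32.5%. With TMM factors it raised 7 and lowered 5, beside 10.8% and 14.3% of all. The Tlr2 promoter was 75.2 and 67.9 with Veh and 178 and 176 with KLA in flox, against 46.8 and 42.4 with Veh and 166 and 174 with KLA in flox Cre (log2 difference 1.30, SE 0.16, adjusted p = 8.4e-15 in flox, log2 difference 1.93, SE 0.18, adjusted p = 8.8e-26 in flox Cre), so it rose in both. Among regions that fell, 11.2 kb downstream of Tlr7 H3K27ac was 300.1 and 290.3 with Veh and 143 and 128 with KLA in flox, against 247 and 259 with Veh and 69.3 and 54.7 with KLA in flox Cre (log2 difference -1.12, SE 0.12, adjusted p = 8.2e-19, not called at -0.69 with TMM factors in flox). The Tlr3 promoter, whose upstream site lost all 5 factors named above, was 114 and 142 with Veh and 271 and 288 with KLA in flox, against 108 and 92.9 with Veh and 217 and 215 with KLA in flox Cre and also rose in both (log2 difference 1.13, SE 0.12, adjusted p = 2.8e-18 in flox, log2 difference 1.10, SE 0.13, adjusted p = 2.7e-15 in flox Cre). In the WT and NKO libraries, counted over other regions, the Tlr3 promoter was 54.2 and 47.9 with Veh and 65.4 and 39.3 with KLA in WT, against 54.6 and 59.2 with Veh and 63.2 and 65.97 with KLA in NKO. There the WT groups overlapped, the NKO groups did not, and neither was called (log2 differences 0.05 and 0.18). The 4.6 kb upstream site itself had H3K27ac of 112 and 98.4 with Veh and 64.3 and 83.1 with KLA in flox, against 92.3 and 81.6 with Veh and 53.5 and 70.3 with KLA in flox Cre, and was not called in flox (log2 difference -0.51). The Cd14 promoter was 511 and 473 with Veh and 360.1 and 362 with KLA in flox, against 375 and 382 with Veh and 285 and 315 with KLA in flox Cre and was not called in either genotype (log2 differences -0.45 and -0.33). The call of H3K27ac in flox at the start of Tlr3 was lost without flox Veh replicate 1 (log2 difference 0.98).

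The KLA response differed between flox Cre and flox at 4 of 31 regions, all more negative in flox Cre, beside 5.37% of all regions called in either direction. None of the 4 was called with TMM factors, which called 1.40% of all higher and 2.31% lower. At 6.8 kb upstream of Tlr13, H3K27ac was 367 and 392.1 with Veh and 319 and 289 with KLA in flox, against 354 and 363 with Veh and 146 and 138 with KLA in flox Cre (interaction log2 difference -1.02, SE 0.14, adjusted p = 3.2e-11, not called at -0.83 with TMM factors). At 8.3 kb upstream of Tlr13 it was 286 and 299.97 with Veh and 189 and 225 with KLA in flox, against 297 and 261 with Veh and 98.2 and 87.3 with KLA in flox Cre (interaction log2 difference -1.09, SE 0.17, adjusted p = 5.7e-09, not called at -0.90 with TMM factors). Both fell in flox Cre and stayed within 2-fold in flox. At 15.9 kb downstream of Tlr4 it was 153 and 152 with Veh and 56.3 and 55.2 with KLA in flox, against 178 and 169 with Veh and 30.3 and 28 with KLA in flox Cre (interaction log2 difference -1.12, SE 0.27, adjusted p = 0.00056, not called at -0.94 with TMM factors), and at 11.6 kb downstream of Tlr7 334 and 315 with Veh and 167 and 172 with KLA in flox, against 271 and 279 with Veh and 68.6 and 67.1 with KLA in flox Cre (interaction log2 difference -1.08, SE 0.18, adjusted p = 7.1e-08, not called at -0.90 with TMM factors, and log2 difference -2.02, SE 0.13, adjusted p = 3.6e-46 for KLA in flox Cre). At all 4 the flox Cre KLA libraries were the lowest of the 8. The summed H3K27ac of the 6 macrophage markers near their starts was also lowest in that group, at 807 to 827 tags per 10 M against 1988 to 2052 in flox with Veh, 1897 to 1979 in flox with KLA and 1742 to 1768 in flox Cre with Veh. That of 3 of the 4 dendritic cell markers was 56.7 to 62.8 in flox Cre with KLA and 87.0 to 126 in the other groups, and the part of either list in these differences was not tested. With KLA, 5 regions were called lower in flox Cre than in flox and 0 higher (log2 difference -1.10, SE 0.11, adjusted p = 1.1e-22, not called at -0.71 with TMM factors at 6.8 kb upstream of Tlr13), beside 7.52% of all in either direction. Of the 5, 2 were near Tlr7, 2 near Tlr13 and 1 near Tlr9. The Tlr7 regions, 11.2 and 11.6 kb downstream, overlap and share tags, so they are not separate observations. With TMM factors 0 were called, beside 1.90% higher and 1.08% lower of all. With Veh no region was called by edgeR and 0 by DESeq2, 12 had an unadjusted p under 0.05, and 0.397% of all were called. For the interaction 6.8 kb upstream of Tlr13 the call was lost without flox Cre KLA replicate 2 (log2 difference -0.98), flox KLA replicate 1 (log2 difference -0.95) or flox Veh replicate 1 (log2 difference -0.97). A call of the interaction 8.3 kb upstream of Tlr13 ended without flox Cre Veh replicate 1 (log2 difference -0.99) or flox KLA replicate 2 (log2 difference -0.96).

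In osteoclast precursors, RANKL culture was followed for ERK1 and p300. For p300, tags were called higher on day 4 at 11 of 26 peaks (42.3%) and lower at 0, beside 62.2% and 0.248% of all p300 peaks in this table. With TMM factors, which move the median of all peaks by -1.61, none of the 11 was called, beside 8.80% higher and 3.83% lower of all. Without day 0 replicate 2 there were 18 calls, and without either day 4 library 1. The median log2 difference was 1.31 at the loci and 1.84 over all peaks. At 3.7 kb upstream of Tlr2 p300 was 23.7 and 27.7 on day 0 and 107 and 118 on day 4 (log2 difference 2.14, SE 0.38, adjusted p = 0.00086, not called at 0.53 with TMM factors), and at the Cd14 promoter 13.2 and 10.6 on day 0 and 52.8 and 57.9 on day 4 (log2 difference 2.16, SE 0.54, adjusted p = 0.0051, not called at 0.55 with TMM factors). Both day 4 libraries lay above both day 0 libraries. At 15.9 kb downstream of Tlr4 p300 was 17.6 and 14.9 on day 0 and 63.6 and 37.4 on day 4 (log2 difference 1.61, SE 0.55, adjusted p = 0.023, not called at -0.01 with TMM factors). ERK1 was called at 1 of 25 peaks (4.00%), higher on day 4, and lower at 0, beside 2.33% and 0.0267% of all. TMM factors gave no call for ERK1, at the loci or over all peaks. The ERK1 calls numbered 3 and 2 without day 0 replicates 1 and 2 in turn and 0 without either day 4 library. The called peak lay 12.2 kb downstream of Tlr7, where ERK1 had no tag on day 0 and 38.9 and 15.5 on day 4, at least 18.1-fold higher. The day 4 replicate 2 of ERK1 is described in the labels as replicate 3 with another date code. The call of p300 at the start of Cd14 was lost without day 4 replicate 1 (adjusted p = 0.1) or day 4 replicate 2 (adjusted p = 0.14). For p300 15.9 kb downstream of Tlr4 the call ended without day 4 replicate 1 (adjusted p = 0.45) or day 4 replicate 2 (adjusted p = 0.13). A call of ERK1 12.2 kb downstream of Tlr7 did not hold without day 4 replicate 1 (adjusted p = 0.43) or day 4 replicate 2 (adjusted p = 0.11).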

How the data were processed

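ChIP-seq was analysed from 15 deposited tables of raw tag counts per peak. According to the methods, the authors mapped reads to mm10 with Bowtie2, called peaks with HOMER, merged the reproducible peaks of a factor and counted tags per library in them, and H3K27ac was counted over open chromatin regions. Their versions are not given in the sources used here. The 74 count columns hold 70 libraries. No count column belongs to any of the 30 input libraries, which were not used here, and 0 other per-sample columns were set aside.

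From the deposited counts, every peak of a table was fitted with edgeR (4.0.16, R 4.3.3) by its quasi-likelihood F-test, two-sided, with all groups of the table in 1 fit, the library totals of the file headers as offsets and no other covariate. Peaks in which no library reached 4 tags (16 for H3K27ac) were left out. P-values were adjusted by Benjamini-Hochberg over all tested peaks of the table, and a peak was called at an adjusted p under 0.05 with a change of more than 2-fold. Each fit was checked on simulated counts in which 200 peaks changed 3-fold, of which between 0% for Fosl2 and 100% for PU.1 were called. The share of calls that were false was highest for ERK1 with KLA (10.1%), p300 on day 4 (8.11%) and NCoR with ERKi (5.93%). Alternatives were TMM factors, DESeq2 (1.42.0, which the authors used), no filter, a replicate block and leaving out each library, and sites were also joined at other distances. The text names promoter peaks, sites in many tables and called peaks, chosen after their values were seen. Not every gene and factor with calls is named, so a pair left out may still hold called peaks. The genes and gene lists were chosen with earlier results of these data known, and 1 gene of the macrophage marker list is not reported here. Shared motifs were searched in 200-base windows with Python 3.11.15.

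The labels call the libraries biological replicates without saying that they came from separate mice, so p-values measure the spread between these libraries. Header totals set the precision, and intervals (95%) and floors (3 tags over a group) cover counting error only. The NCoR ERKi libraries carry another date code than the other NCoR libraries, whose titles name no DMSO.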

Additional observations from a re-analysis of the deposited data

Results flagged for a closer look

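The change in H3K27ac with KLA differed between Pgc1b flox Cre and flox BMDMs at 4 regions of the loci, by the interaction term of edgeR's quasi-likelihood test. The log2 difference between the responses, as flox Cre minus flox, was -1.09 at 8.3 kb upstream of Tlr13, -1.02 at 6.8 kb upstream of Tlr13, -1.12 at 15.9 kb downstream of Tlr4 and -1.08 at 11.6 kb downstream of Tlr7. None of these 4 was called with TMM factors, and H3K27ac at macrophage marker genes was also lowest in flox Cre with KLA. The part of either in the difference was not tested.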

How the results depend on the processing

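Of 216 counts of called peaks at the loci under other settings, 174 lay within 1.5 times the reported count. With TMM factors the calls numbered 49 for p65 (78 as reported), 19 for Fosl2 (11), 5 for NCoR with ERKi (61), 0 for ERK1 on day 4 (1), 0 for p300 on day 4 (11), and 0 for H3K27ac between flox Cre and flox with KLA (5) and for their KLA response (4). The 19 Fosl2 calls were all higher, beside 19.0% higher and 9.68% lower of all Fosl2 peaks with TMM factors. DESeq2 gave 4 for PGC1b with ERKi (0), 3 for p300 on day 4 and 1 for the KLA response of NKO against WT (0), which was also 1 without the tag filter. Of 609 single peaks followed, 429 kept their direction and side of the threshold with TMM factors, 559 with DESeq2, 608 without the filter and 569 with a replicate block. The sign turned with TMM factors at 15. For p65 the log2 difference became -0.2 at Ly96 0.4 kb, -0.0598 at Tlr1 48.3 kb, -0.0583 at Tlr2 2.0 kb, -1.17 at the Tlr4 and -0.143 at the Tlr6 start, and -0.0172 and -0.00108 at Tlr7 4.3 kb upstream and its start. For NCoR with ERKi it became 0.0802 at Cd14 13.3 kb, 0.126 and 0.0644 at Tlr1 0.3 and 13.7 kb, 0.0952 at Tlr13 6.4 kb, and 8.28e-05 and 0.148 at Tlr7 4.2 kb upstream and 14.6 kb. For p300 on day 4 it became -0.0961 at Tlr13 6.4 kb and -0.00873 at Tlr4 15.9 kb. TMM factors set the median shift of all peaks near 0 by construction, and the counts cannot show whether that shift was real.

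With the replicate number as a block the calls numbered 6 for Fosl2 and 5 for p300 on day 4, and the other counts stayed within 1.5 times. Libraries of the same number showed no shared deviation (correlations of their deviations from -0.027 to 0.026). Counting noise in peaks with few tags also lowers such correlations, so whether libraries of the same number were paired cannot be told. With each library left out in turn, the lowest and highest counts were 21 and 55 for NCoR, 14 and 46 for HDAC3, 46 and 81 for p65, 0 and 25 for Fosl2, 11 and 27 for PGC1b, 3 and 11 for ERK1, 15 and 19 for PGC1b with DMSO, 38 and 56 for NCoR with ERKi, 0 and 3 for ERK1 and 1 and 18 for p300 on day 4, 1 and 5 for H3K27ac in WT, 2 and 5 in NKO and 0 and 2 for their KLA response. A group left with 1 library was assumed to vary like the others. Joining peaks within 100 or 1000 bp gave 186 or 120 sites, of which 5 or 7 lay in all tables. In simulated counts of 200 peaks changed 3-fold, 0% were called for Fosl2, 2% for ERK1 and 34% for p300 on day 4. For PGC1b with DMSO 30% were called and for ERK1 with KLA 31%, beside 100% for PU.1. A change of this size can therefore go uncalled at this depth and spread.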
